A study of Rattus norvegicus with 26 samples.

Results

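Livers of rats that had lost about 2/3 of their liver mass were compared with livers of rats that had lost about 1/3, both sampled 24 hours after partial hepatectomy (PH), the surgical removal of liver lobes. The comparison set the 3 arrays titled 2/3PH 24H against the 3 titled 1/3PH 24H, and it covered every miRNA that the scanner software called detected throughout at least 1 of these groups of 3. Of the 677 rat miRNAs on the array, 131 met this rule. Of the 131, 114 were detected on all 6 arrays, 13 were complete only after 2/3 PH and 4 were complete only after 1/3 PH.

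The study profiled liver miRNA in 26 male Sprague-Dawley rats, 1 rat per array, to follow how the size of the resection relates to the miRNA response of the regenerating liver. Right lobes came from unoperated normal rats or from rats 6, 12, 24 or 36 hours after either operation, and each group had 3 arrays except 1/3 PH at 6 hours with 2. The smaller operation took a single lobe, and most hepatocytes enter DNA replication only after the larger one. The question put to the 24 hour livers was which miRNAs differ when operated animals differ in how much liver they lost.

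The 1/3 PH group at 24 hours held rats m20, m23 and m24, and the 2/3 PH group held rats m26, m29B and m31B. The source labels give 25 hours for m23 and m29B and 26 hours for m24 and m31B where the titles give 24, and the labels call the protocol of the normal livers sham. Total background-subtracted signal was 81264 units in m20, 81938 in m23, 64406 in m24, 78404 in m26, 66326 in m29B and 71027 in m31B, and no spot was saturated. The number of arrays limits the precision. A limma p-value here measures a difference against the spread within all 9 groups of the 26 rats, not within these rats alone. With only the groups compared, no miRNA was called.

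The groups were not spread evenly over slides. The file headers placed m20 and m23 on slide 1 and m24 on slide 5, which was scanned on day 3, whereas all 3 arrays of 2/3 PH at 24 hours shared slide 2 with all 3 arrays of 1/3 PH at 36 hours and were scanned on day 1, as was slide 1. Slide and operation therefore cannot be told apart in the 24 hour comparison itself, and array m24 stood apart from the rest in ways given with the results it touches.

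A miRNA is cut from a hairpin precursor, loaded into an Argonaute protein and pairs with messenger RNAs mainly through its seed, the bases near its 5′ end, so that miRNAs with the same seed can reach many of the same targets. Several miRNAs are often cut from a single primary transcript, and such clusters tend to be expressed together. The miR-17-92 cluster, its relative miR-106a-363 on the X chromosome and the miR-106b-25 cluster inside an intron of the replication gene Mcm7 are known for high expression in dividing cells and as targets of the E2F and MYC transcription factors, and the liver itself is marked by miR-122.

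The results at 24 hours turned on these clusters, so their mature sequences are printed first, 5′ to 3′, from RefSeq (GRCr8), with the seed (bases 2 to 8) in capitals. A RefSeq sequence was found for 94 of the 131 miRNAs, 30 by exact name and 64 through the arm of the hairpin. The first 5 share the seed AAAGUGC.
miR-17-5p: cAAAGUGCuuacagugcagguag
miR-20a: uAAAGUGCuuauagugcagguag
miR-20b-5p: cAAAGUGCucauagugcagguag
miR-93: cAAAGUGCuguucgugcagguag
miR-106b: uAAAGUGCugacagugcagau

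The next has a seed of its own among the members, and the 2 after it share AUUGCAC.
miR-18a: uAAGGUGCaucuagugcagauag
miR-25: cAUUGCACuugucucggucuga
miR-92a: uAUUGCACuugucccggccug

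The following pair shares GUGCAAA, and miR-26a is shown as the miRNA with the lowest unadjusted p among those lower after 2/3 PH.
miR-19a: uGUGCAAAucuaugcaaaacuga
miR-19b: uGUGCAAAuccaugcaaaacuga
miR-26a: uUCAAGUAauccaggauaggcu

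On GRCr8 the 6 hairpins of the miR-17-92 cluster lie at chr15:98587848-98588632 on the plus strand, a span of 785 bases. The mature miR-93 of the miR-106b-25 cluster lies at chr12:22156894-22156916 on the minus strand, between miR-25 at chr12:22156652-22156673 and miR-106b at chr12:22157103-22157123. The miR-106a-363 cluster, with 5 hairpins, lies at chrX:137342777-137343647 on the minus strand. Mature miR-17-5p, miR-19b and miR-92a each have 2 loci, so their signals cannot be assigned to 1 cluster. The sequences are also close: miR-17-5p is identical to miR-20a and to miR-20b-5p at 21 of 23 positions and to miR-93 at 19, and whether probes bound their near neighbours was not tested.

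At 24 hours, livers with the larger resection had more of 4 miRNAs, all from these clusters: miR-93, miR-17-5p, miR-20b-5p and miR-18a. miR-93 and miR-20b-5p were 1.83-fold and 1.75-fold higher than after 1/3 PH, and the differences of miR-17-5p and miR-18a are not exact, since each lay at the floor on 1 array of 1/3 PH. Over the processing alternatives other than leaving out an array, log2 differences ran from 0.30 to 0.94 for miR-93 and 0.35 to 0.83 for miR-20b-5p. Those of miR-17-5p ran from 0.24 to 1.14 and those of miR-18a from 0.30 to 1.81. The 0.35 of miR-20b-5p came with normexp background correction, whose offset of 50 signal units shrinks the folds of dim miRNAs. In all 4 called miRNAs, every 2/3 PH array lay above every 1/3 PH array. With slide as a random block or scan day as a fixed block, only miR-93 remained called. Neither block can remove an effect of slide 2, which held all 2/3 PH arrays at 24 hours and none of 1/3 PH at 24 hours. miR-93 itself was not called without scaling, with the 75th percentile over all probes, normexp, the deposited log2 table or only the groups compared. The clusters had 10 miRNAs among the 131 members. All 10 had a higher mean after 2/3 PH, or 7 with the 75th percentile over all probes. That scaling moved all differences by the same amount, and only 109 of its 1644 probes stood well above background on every array. For 9 of the 10 cluster miRNAs every 2/3 PH array was the higher, as it was for 9.03% of all tested miRNAs. No miRNA passed the test in the other direction. Families outside the clusters had medians between −0.25 and 0.30.

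Values are log2 of scaled signal, with 0 at the 75th percentile of the probes well above background on every array. miR-93, of the miR-106b-25 cluster, measured −3.08 in m20, −3.29 in m23 and −3.40 in m24 after 1/3 PH, and −2.16 in m26, −2.39 in m29B and −2.61 in m31B after 2/3 PH. All 3 rats with the larger resection were higher than all 3 with the smaller, and the gap between the groups was wider than the range within either. The difference was 0.87 (SE 0.129), or 1.83-fold, with a limma adjusted p of 0.000248.

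miR-17-5p, the first miRNA of the miR-17-92 cluster, measured −4.04, −4.09 and −4.26 in m20, m23 and m24 and −2.63, −3.27 and −3.19 in m26, m29B and m31B. Of the 1/3 PH livers, m20 lay at the floor of its array and m23 close to its floor of −4.14. m24 lay above its floor of −5.04, and m26 was the highest of the 2/3 PH livers. The difference, not exact because of the floored array, was 1.10 (SE 0.251), with 3 of 3 arrays higher and a limma adjusted p of 0.0217.

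miR-20b-5p, of the cluster on the X chromosome, measured −2.17, −2.24 and −2.47 after 1/3 PH and −1.29, −1.52 and −1.64 after 2/3 PH, in the same order of rats. The groups did not overlap, and the distance between them was greater than the spread within each. The difference was 0.81 (SE 0.196), with 3 of 3 arrays higher and a limma adjusted p of 0.0271.

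miR-18a, also of the miR-17-92 cluster, measured −3.99, −4.14 and −4.87 after 1/3 PH and −2.89, −3.03 and −3.20 after 2/3 PH. Rat m24 was the lowest, but its floor of −5.04 lay below the floors of m20 (−4.045) and m23 (−4.14). m23 lay at its floor and m20 close to its own, so neither could read as low as m24. All 3 livers of the larger resection were above. The difference, again not exact, was 1.29 (SE 0.332), with 3 of 3 arrays higher and a limma adjusted p of 0.0345. Without m24 it was 1.02.

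**Figure D1:**
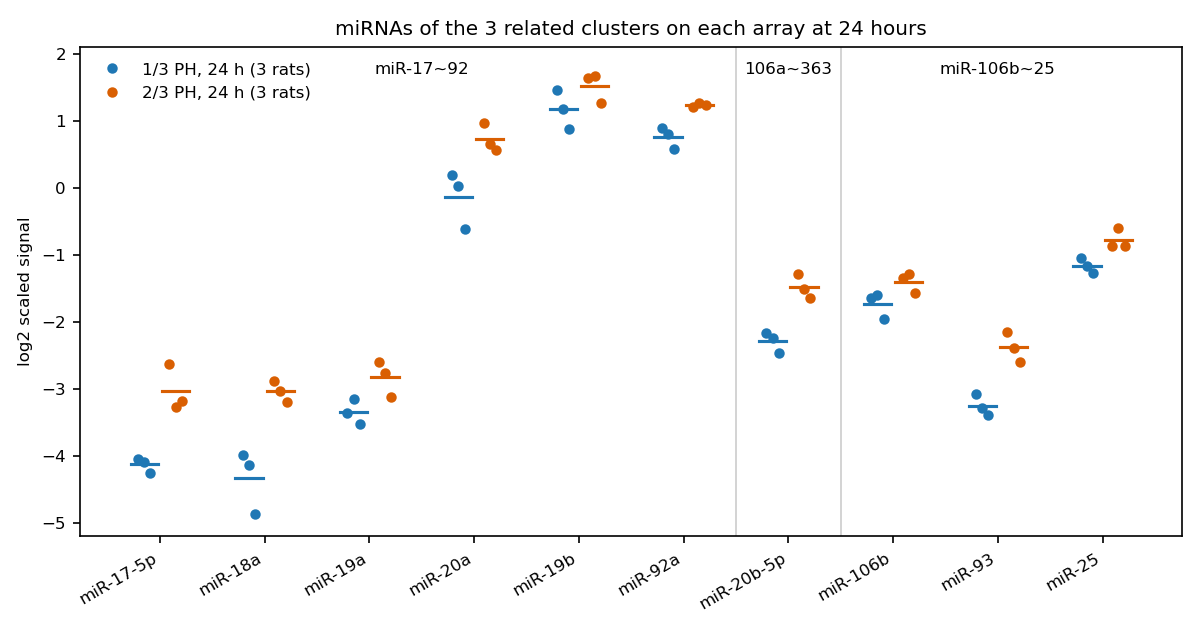
Log2 scaled signal of the 10 cluster miRNAs in each of the 6 livers at 24 hours, with 1/3 PH and 2/3 PH side by side and the group means as bars. miR-93, miR-17-5p, miR-20b-5p and miR-18a lie 0.81 to 1.29 higher after 2/3 PH, and miR-19b alone overlaps between the groups.

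These 4 were the only miRNAs called higher in limma (2.78% of those tested), and 0 (0%) were called lower. At an unadjusted p under 0.05, 11 were higher (7.64%) and 4 lower (2.78%). Every 2/3 PH array lay above every 1/3 PH array for 13 tested miRNAs (9.03%), and below for 9 (6.25%), of which 8 were members. The 13 included the 9 cluster miRNAs, with miR-21, miR-345-5p, let-7f and miR-1249. Leaving out any 1 of m23, m24 or m26 left 1 call, miR-93, which was called in all 26 fits that left out an array, and without scaling, or scaled to the 75th percentile over all probes, no call remained. The calls of miR-17-5p, miR-20b-5p and miR-18a ended with either block, at limma adjusted p of 0.105, 0.105 and 0.128 for slide and 0.0507, 0.0732 and 0.0764 for scan day, while the differences were 1.13, 0.83 and 1.28 with slide and 1.11, 0.75 and 1.18 with scan day.

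The other 6 cluster miRNAs did not pass the test. miR-20a measured 0.18, 0.02 and −0.61 after 1/3 PH and 0.96, 0.66 and 0.56 after 2/3 PH, with m24 far below its group. Its difference of 0.86 (SE 0.256) was close to that of miR-93, but with 3 of 3 arrays higher its limma adjusted p was 0.0781. miR-92a, the last miRNA of the same cluster, measured 0.89, 0.81 and 0.57 against 1.21, 1.27 and 1.24. The 2/3 PH livers were nearly identical to each other and above all 1/3 PH livers. The difference was 0.48 (SE 0.146), with 3 of 3 arrays higher and a limma adjusted p of 0.0781.

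The other miRNAs of the miR-106b-25 cluster lay closer to the 1/3 PH livers. miR-25 measured −1.05, −1.17 and −1.28 after 1/3 PH and −0.87, −0.60 and −0.88 after 2/3 PH, and miR-106b measured −1.64, −1.60 and −1.97 against −1.35, −1.29 and −1.57. Neither overlapped, although m31B came within a few hundredths of m23 for miR-106b. The differences were 0.39 (SE 0.160) for miR-25 and 0.33 (SE 0.150) for miR-106b, with limma adjusted p of 0.301 and 0.392 and 3 of 3 arrays higher in each. That of miR-106b was 0.22 without m24 and 0.42 without m31B. miR-19a differed by 0.52 (SE 0.305) without overlap, and miR-19b by 0.35 (SE 0.188) with overlap, or 0.21 without m24 and 0.49 without m20.

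The lists of the 3 clusters held 12 miRNAs, of which 10 were members and miR-20b-3p and miR-363 were undetected. A further 13 arms of these hairpins on the array, outside the lists, were detected on 0 of the 6 arrays. The median difference of the 10 was 0.66, beside 0.01 over all 131 members and −0.01 over the other 121. The lists were chosen with earlier results of these data known, and the 10 include every called miRNA, so this contrast is a description only. The 75th percentile over all probes moved the median of all members to −0.42, and there 7 of the 10 were positive, with miR-25, miR-106b and miR-19b at −0.04, −0.10 and −0.08. Sorted by seed, the 5 miRNAs with AAAGUGC had a median of 0.86, the pair with AUUGCAC 0.44 and the pair with GUGCAAA 0.43. Of the 14 seeds shared by 2 or more members, which hold 42 miRNAs, the remaining 11 had medians from −0.25 to 0.10.

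Both operations were also set against normal livers, whose arrays lay on slides 3, 4 and 5, while all 2/3 PH livers at 24 hours lay on slide 2. Slide and operation therefore cannot be told apart in the difference of 2/3 PH from normal. miR-93 measured −3.28, −3.25 and −3.52 in the 3 normal livers, so that 1/3 PH differed from normal by 0.09 and 2/3 PH by 0.96. miR-17-5p differed from normal by −0.02 after 1/3 PH and 1.08 after 2/3 PH, and miR-20b-5p by −0.05 and 0.76. In these 3 miRNAs the mean of the 1/3 PH livers lay near that of the normal livers, and the mean of the 2/3 PH livers lay above both. miR-18a differed by 0.28 and 1.57, miR-20a by 0.11 and 0.97 and miR-106b by 0.23 and 0.56, and miR-25 by 0.09 and 0.48, miR-92a by −0.09 and 0.40 and miR-19b by −0.05 and 0.30. In miR-19a the 1/3 PH livers were further from normal, at −0.36, than the 2/3 PH livers, at 0.16. Normal livers m79, m65 and m75 measured −4.01, −2.44 and −2.51 there. Both differences therefore depend on m79, and both operations had means below m65 and m75. Among the 3 normal livers miR-18a lay at the floor in 2 and miR-17-5p in 1, so their differences from normal are not exact. Over the 10 cluster miRNAs the median difference from normal was 0.04 after 1/3 PH and 0.66 after 2/3 PH, and the differences from normal share the same normal livers.

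**Figure D2:**
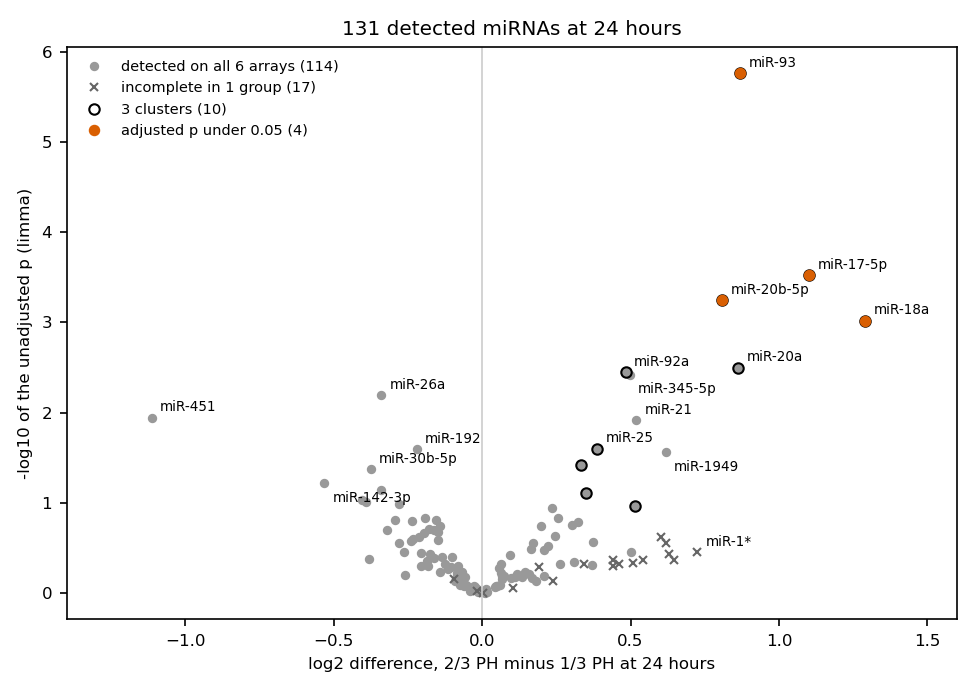
Difference between operations at 24 hours (log2, 2/3 PH minus 1/3 PH) against the unadjusted limma p for the 131 miRNAs, with cluster miRNAs marked. The 4 called miRNAs lie between 0.81 and 1.29, and the lowest value, −1.11, belongs to miR-451.

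The 24 hour livers of 2/3 PH shared a slide with 1/3 PH only at 36 hours, so within that slide the operations were compared 12 hours apart. The 3 arrays of 1/3 PH at 36 hours gave −3.18, −3.44 and −3.46 for miR-93, and all 3 livers of 2/3 PH at 24 hours were above them. Within this slide 7 miRNAs were called higher in limma (4.86% of those tested) and 3 lower (2.08%). The 7 were miR-93 at 0.97, miR-1949 at 1.19, miR-20a at 0.93, miR-20b-5p at 0.92, miR-17-5p at 0.89, miR-92a at 0.58 and miR-15b at 0.51. The clusters account for 5 of the 7, and miR-18a differed by 1.03 (limma adjusted p 0.0732, 3 of 3 arrays higher). In 1/3 PH at 36 hours miR-17-5p and miR-18a lay at the floor on 2 of the 3 arrays and miR-1949 on 1, so these 3 differences are not exact. No call within the slide remained without scaling, with the 75th percentile over all probes or with normexp, while miR-93 alone remained without m46, miR-93 and miR-15b without m26, and miR-93 and miR-1949 without m47. The 3 lower ones were miR-652*, miR-22 and miR-26a, at −0.87, −0.46 and −0.38, with miR-22 named after its values were seen. With slide as a fixed block miR-17-5p and miR-22 were not called. With the deposited log2 table miR-93, miR-17-5p, miR-1949, miR-15b and miR-22 were not called. Over the 10 cluster miRNAs the median difference within the slide was 0.74, and these values share the 2/3 PH arrays with the main comparison.

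Among arrays of scan day 1 alone, m20 and m23 stood for 1/3 PH. miR-93 then differed by 0.80 (limma adjusted p 0.0318, 3 of 3 arrays higher), miR-17-5p by 1.04 (0.0778) and miR-18a by 1.02 (0.0778). miR-20b-5p differed by 0.72 (limma adjusted p 0.199), so that 3 of the 4 calls ended while all differences stayed positive, and the 10 cluster miRNAs had a median of 0.53. With 2 livers left for 1/3 PH, whether the smaller number ended the calls was not tested. Over the alternatives other than leaving out an array, the limma adjusted p ran from 3.06e-05 to 1.00 for miR-93, from 0.00262 to 1.00 for miR-17-5p, from 0.00264 to 1.00 for miR-20b-5p and from 1.26e-07 to 1.00 for miR-18a.

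**Figure D3:**
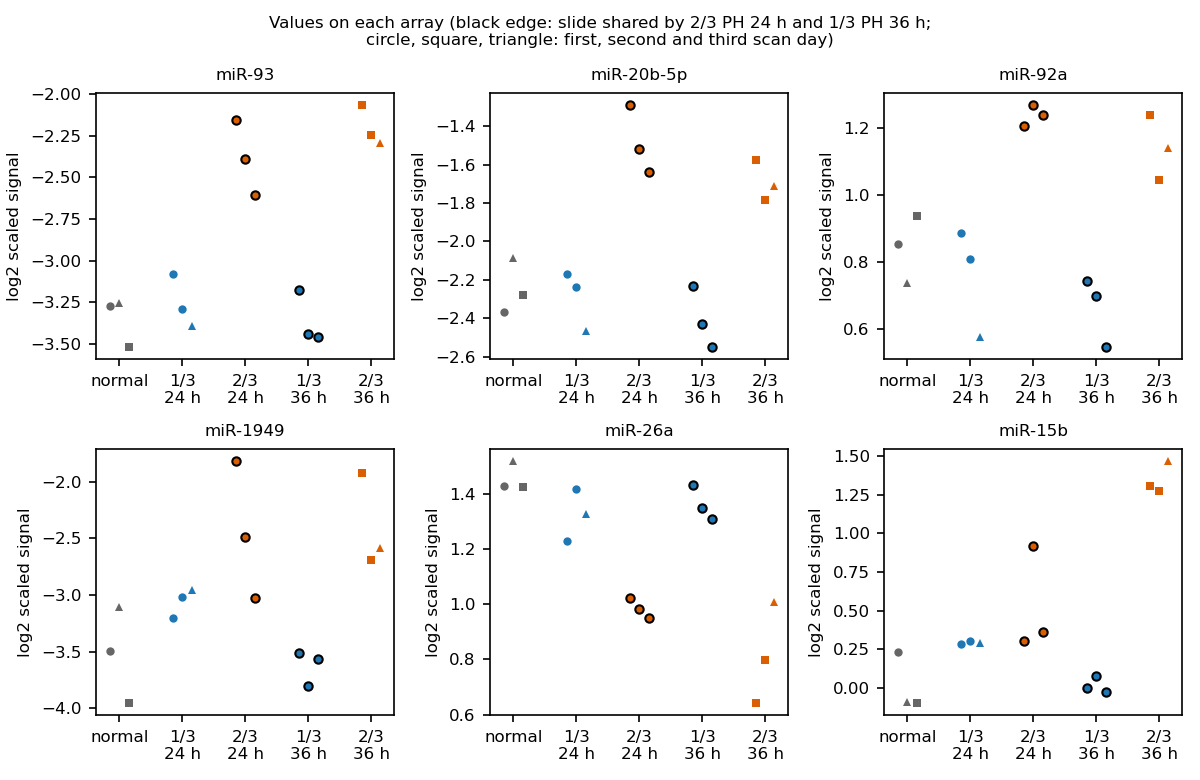
Log2 scaled signal of 6 miRNAs on each array of normal liver and of both operations at 24 and 36 hours, with black edges for slide 2 and marker shapes for the 3 scan days. miR-93 is 0.97 higher in 2/3 PH than in 1/3 PH within slide 2.

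At 36 hours, the arrangement was reversed, with 1/3 PH on slide 2 (scan day 1) and 2/3 PH on slides 4 (day 2) and 6 (day 3), so that operation, slide and scan day cannot be told apart. There 15 miRNAs were called higher after 2/3 PH in limma (10.4% of those tested) and 7 lower (4.86%). miR-93 rose by 1.16, miR-18a by 1.27, miR-17-5p by 0.87 and miR-20b-5p by 0.71, with the floored 1/3 PH values again in miR-18a and miR-17-5p. Of the 6 cluster miRNAs that missed the test at 24 hours, miR-25, miR-106b and miR-92a passed it at 36 hours, with 0.58, 0.57 and 0.48. The other 3, miR-20a, miR-19a and miR-19b, missed it again, with 0.67, 0.84 and 0.22. Over the 10 cluster miRNAs the median difference was −0.17 after 6 hours and −0.05 after 12, against 0.66 after 24 and 0.69 after 36. miR-18a lay at the floor on all arrays of 6 and 12 hours, so it had no measured difference there.

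The change of the operation difference with time was tested as an interaction. miR-93 differed between operations by −0.24 at 6 hours and −0.19 at 12 hours, against 0.87 at 24 hours. It was called for the difference of 24 minus 6 hours, 1.11 (SE 0.193), and of 24 minus 12 hours, 1.06 (SE 0.182), the single call of each (0.694% of those tested in both), with limma adjusted p of 0.00212 and 0.00185 and 3 of 3 arrays of 2/3 PH higher at 24 hours. Over the 16 alternatives other than leaving out an array, the difference of 24 minus 6 hours ran from −0.30 to 1.95 and missed the threshold in 7. That of 24 minus 12 hours ran from −1.04 to 1.08 and missed it in 8, and the first scan day alone ended both calls, at differences of 0.98 and 1.03. miR-93 lay at the floor on 1 array of 2/3 PH at 6 hours and 1 of 1/3 PH at 12 hours, and at 24 hours slide and operation cannot be told apart.

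miR-15b, of the family of miR-16, differed between operations at 36 hours. It measured 0.29, 0.31 and 0.29 after 1/3 PH and 0.31, 0.92 and 0.37 after 2/3 PH at 24 hours, where m29B alone was high, and its difference of 0.23 (SE 0.141) did not pass limma (adjusted p 0.703, with 2 of 3 arrays above all 1/3 PH arrays). Without m29B miR-15b differed by 0.04. At 36 hours it measured 1.30, 1.27 and 1.47 after 2/3 PH against 0.00, 0.08 and −0.03 after 1/3 PH. The difference at 24 hours was smaller than that at 36 hours by a tested −1.10 (SE 0.199, limma adjusted p 0.00356), the single call of that interaction (0.694%). This call ended in 5 of the 16 alternatives, slide as a random block among them with a difference of −1.12, and at 36 hours the operations lay on different slides and scan days.

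**Figure D4:**
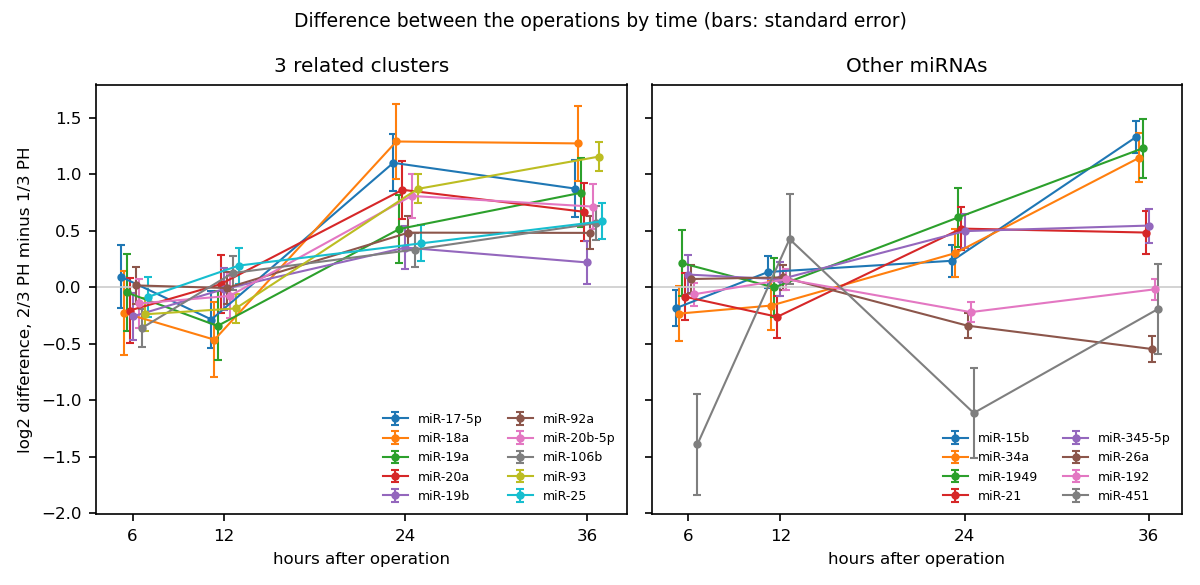
Difference between operations (log2, 2/3 PH minus 1/3 PH) at 6, 12, 24 and 36 hours for the cluster miRNAs and selected others, each with its SE. miR-93 goes from −0.19 at 12 hours to 0.87 at 24 hours, and miR-15b from 0.23 at 24 hours (0.04 without m29B) to 1.33 at 36 hours.

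Other miRNAs higher after 2/3 PH did not pass the test. miR-21, induced in many injured or growing tissues, measured 4.77, 4.55 and 4.63 after 1/3 PH and 5.21, 5.18 and 5.13 after 2/3 PH. The groups were well apart, but its difference of 0.52 (SE 0.187) had a limma adjusted p of 0.173, with 3 of 3 arrays higher, and it was 0.00 after quantile normalization. miR-345-5p measured −2.73, −2.89 and −2.82 against −2.40, −2.23 and −2.32. The rats of each group were close together and the groups apart. Its difference was 0.50 (SE 0.151), with 3 of 3 arrays higher and a limma adjusted p of 0.0781. miR-1949 measured −3.21, −3.02 and −2.96 against −1.81, −2.49 and −3.03, so that m31B lay among the 1/3 PH livers and m26 far above. miR-3562 differed by 0.50 with overlap, or 0.13 without m26.

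The lower side held no call. miR-451, made in developing red cells, measured −0.78, −0.84 and 0.45 after 1/3 PH and −1.20, −1.08 and −2.24 after 2/3 PH. Rat m24 was high and m31B low, at the outer ends of their groups, and the groups did not overlap. The difference of −1.11 (SE 0.398) had a limma adjusted p of 0.173, with 3 of 3 arrays lower. The 1/3 PH livers lay 0.79 above normal and the 2/3 PH livers differed from normal by −0.32, and among the arrays of day 1 the difference between operations was −0.69. Normal livers measured −1.04, −1.30 and −1.22. Since m26 and m29B lay among them, the −0.32 rested on m31B, and m24 raised the 0.79. Leukocyte miRNAs followed in order of size, with miR-142-3p at −0.53 and miR-223 at −0.40, or −0.33 and −0.26 without m24.

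miR-26a, an abundant miRNA reported to restrain the cell cycle, measured 1.23, 1.42 and 1.33 after 1/3 PH and 1.02, 0.98 and 0.95 after 2/3 PH. The 2/3 PH livers were tightly grouped below all 1/3 PH livers. Its difference of −0.34 (SE 0.111) missed the limma threshold (adjusted p 0.115, 3 of 3 arrays lower), while at 36 hours it was −0.55 with an adjusted p of 0.00333. miR-30b-5p measured −0.97, −0.87 and −0.88 against −1.54, −1.23 and −1.07, a difference of −0.37 (SE 0.172). Its limma adjusted p was 0.406, with 3 of 3 arrays lower, and the difference was −0.25 without m26 and −0.48 without m31B. miR-125b-5p differed by −0.34 without overlap, and miR-652*, miR-500, miR-335 and miR-511* by −0.39, −0.38, −0.32 and −0.29 with overlap. On leaving out an array these 4 ranged from −0.68 to −0.12, −0.53 to −0.20, −0.47 to −0.18 and −0.44 to −0.08.

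miR-101a, which the study named among its cell cycle miRNAs, measured −2.38, −2.20 and −2.43 after 1/3 PH and −2.32, −2.59 and −2.81 after 2/3 PH. Its groups overlapped through m26. The difference of −0.24 (SE 0.206) had a limma adjusted p of 0.857, with 2 of 3 arrays below all 1/3 PH arrays, and it was −0.12 without m31B and −0.37 without m26.

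Across all 131 members the differences ran from −1.11 to 1.29 with a median of 0.01 and quartiles of −0.14 and 0.24, and 69 were positive and 62 negative. The 114 detected on all 6 arrays had a median of −0.02, with 54 positive and 60 negative. With the fold limits of the study, 30 lay over 1.2-fold and 8 under 0.8-fold, so that 29.01% fell outside, and miR-17-5p and miR-18a exceeded 2-fold. The median SD between rats was 0.20 after 1/3 PH and 0.19 after 2/3 PH, and the median absolute difference between the operations was 0.18. Each of the 2/3 PH arrays alone against the mean of 1/3 PH gave 33.6% to 35.1% outside the limits. Among the 114 detected on all 6 arrays, 19 lay over and 8 under.

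Of the 17 members that were complete in 1 group only, 11 lay over 1.2-fold and 0 under 0.8-fold. Passing the rule through the brighter group fixes part of that direction, so their counts support nothing. For 10 of the 13 complete only after 2/3 PH the single missing array was m24, among them miR-1*, let-7b*, miR-191*, miR-1249 and miR-298. Their differences ran from 0.34 to 0.72 with m24 in, and from −0.28 to 0.13, 8 of them negative, among the arrays of day 1. On arrays outside the 24 hour groups, which had no part in choosing these 10 miRNAs, they were detected in 85% of possible cases on the 12 of day 1 and in 6% on the 5 of day 3. The cause was not tested. miR-466b, detected on all 3 arrays of 1/3 PH and on none of 2/3 PH, lay at or near the floor in both groups and is given no fold.

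**Figure D5:**
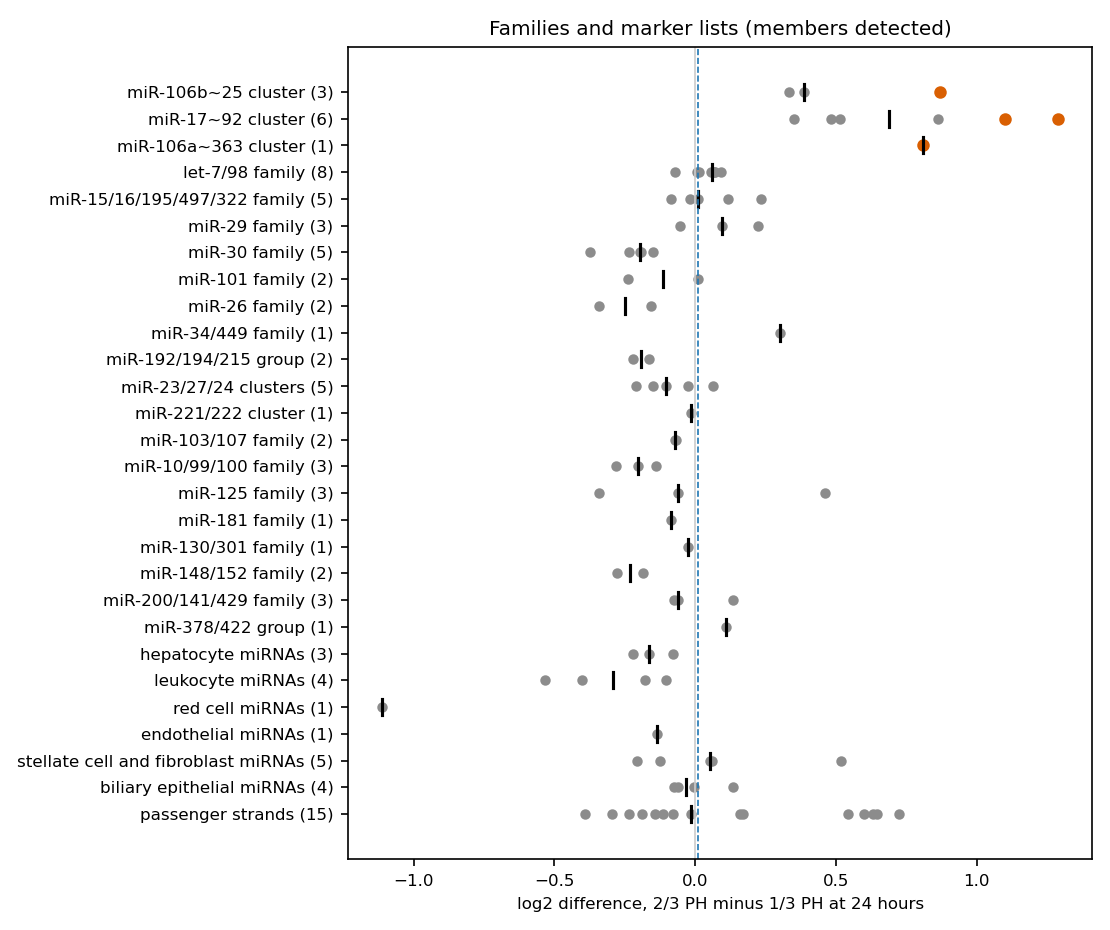
Differences of single miRNAs (log2, 2/3 PH minus 1/3 PH at 24 hours) grouped by family, cluster or marker list, with the median of each as a black bar and that of all members as a dashed line. The 3 clusters have a median of 0.66 together (0.23 with the 75th percentile over all probes), and the let-7/98 family runs from −0.07 to 0.09.

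With the 75th percentile over all probes each family outside the clusters had a negative median. That scaling lowered every difference by the same amount. All 8 members of the let-7/98 family, which oppose growth programmes in many tissues, were detected, with differences from −0.07 for let-7e to 0.09 for let-7d and a median of 0.06, which became −0.03 without scaling, and 6 of the 8 turned sign when an array was left out. The 5 members with the seed of miR-15 and miR-16 had a median of 0.01, or −0.08 without scaling, with miR-15b highest at 0.23 (0.04 without m29B) and miR-497 lowest at −0.08. The miR-29 family, known for restraining collagen genes, ran from −0.06 for miR-29c to 0.22 for miR-29b with a median of 0.10, which was −0.34 with the 75th percentile over all probes and −0.06 without m26. Leaving out an array turned the sign of 2 of its 3 members, and miR-29b was 0.05 without m26. miR-34a, a p53 target, differed by 0.30, or 0.18 without m24 and −0.13 with that scaling, while both operations lay above normal, by 0.94 after 1/3 PH and 1.24 after 2/3 PH.

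Several families lay below 0 without a call. All 5 detected members of the miR-30 family were negative, with a median of −0.19 and with miR-30b-5p and miR-30d not overlapping. The median of this family was −0.11 without m31B and −0.24 without m29B. miR-26b followed miR-26a at −0.16. In the miR-23, miR-27 and miR-24 clusters 4 of 5 were negative, from −0.21 for miR-23a to 0.07 for miR-27a. miR-100, miR-10a-5p and miR-99a were at −0.20, −0.14 and −0.28, and miR-148b-3p and miR-152 at −0.28 and −0.18. Without m24 miR-23a was −0.02 and miR-148b-3p and miR-100 −0.10, and miR-100 lay at the floor on 1 array of each group. The medians of these families ranged from −0.25 to −0.10, beside the median of all members, which the 75th percentile over all probes moved from 0.01 to −0.42.

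The remaining families had few members detected. miR-103 and miR-107 both stood at −0.07, or −0.02 without m23, and their median was 0.02 after quantile normalization, as was miR-130a. miR-101b stood at 0.01, miR-181a at −0.09, miR-130a at −0.03 and miR-378 at 0.11, and none of the 4 was called, with the sign of all but miR-378 turning when an array was left out. miR-221 lay at the floor on 2 arrays of 1/3 PH and 1 of 2/3 PH and has no measured difference. In the miR-125 family miR-125a-3p, detected on 2 of the 3 arrays of 2/3 PH, stood at 0.46, or −0.10 without m26, and miR-125a-5p at −0.06. Passenger strands, the hairpin arms usually discarded, had 15 of 240 among the members with a median of −0.01, 7 positive and 8 negative. Of the 7, 5 were complete only after 2/3 PH, and 4 of these were negative among the arrays of day 1, where the median was −0.12, so the counts support nothing. Of 8 precursors with both arms among the members, miR-122 differed by −0.08 and miR-122* by −0.23, and miR-652 by −0.05 and miR-652* by −0.39, while arms of opposite sign were miR-150 at −0.10 with miR-150* at 0.17 and miR-378 at 0.11 with miR-378* at −0.19. Without m26 miR-122 was 0.004 and miR-122* −0.08. let-7b differed by 0.07 and let-7b* by 0.65, or −0.22 without m24, miR-150* fell to −0.13 on leaving out an array, and both arms of miR-140, miR-30a and miR-30e were negative.

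Markers of cell types checked the label and the mixture of cells. miR-122, the marker of hepatocytes, measured 7.50, 7.46 and 7.13 after 1/3 PH and 7.11, 7.38 and 7.35 after 2/3 PH, while all 4 muscle miRNAs and the neural miR-124 and miR-9 were undetected at 24 hours. The neural miR-128 was detected in m24 and m26 among the 6 livers but lay above the floor in m24 alone. Its log2 mean of −4.29 in both groups therefore measures no level. The groups overlapped in miR-122, with m24 and m26 lowest. In whole liver, fewer cells of a type and less RNA per cell cannot be told apart. miR-192 differed by −0.22 without overlap and miR-194 by −0.16, so that the 3 hepatocyte miRNAs were all negative with a median of −0.16. The difference of miR-122 turned to 0.004 without m26 and was −0.20 without m24. The median of the list was −0.10 without m23 and −0.26 without m24.

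The summed scaled signal of the red cell list, of which miR-451 made up 92.2% and miR-144 the rest, was 0.642, 0.616 and 1.39 after 1/3 PH and 0.475, 0.533 and 0.271 after 2/3 PH. The leukocyte list summed to 0.852, 0.940 and 1.10 after 1/3 PH and 0.710, 0.896 and 0.734 after 2/3 PH, with miR-223 the largest at 33.3% and miR-142-5p undetected. Both sums were highest in m24, and 4 of 6 leukocyte miRNAs were members with a median of −0.29. Their part in the other differences was not tested. The stellate cell and fibroblast list, with 5 of 6 members, rested on miR-21 for 94.9% of its signal, and its median was 0.05, with −0.22 without m20, −0.17 without m26, 0.29 without m24 and −0.03 without scaling. miR-126 of endothelial cells stood at −0.14, and in the biliary list, with miR-141 and miR-200c undetected, miR-200a, miR-200b, miR-31 and miR-429 stood at −0.07, −0.06, −0.01 and 0.13, the first 3 of them turning sign when an array was left out and the last falling to 0.01 without m24.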

How the data were processed

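RNA of 26 rat livers was hybridized to 1-colour (Cy3) Agilent arrays. The authors deposited fluorescence intensity values of every spot from Agilent Feature Extraction 10.7.3.1, background-subtracted and detrended, with no normalization between arrays. They also deposited a log2 table already normalized between arrays by a method the files do not give, used here only as an alternative. Outlier spots were left out, spots of a probe averaged and probes summed per miRNA (677 miRNAs, 1644 probes). Signals were scaled to the 75th percentile of 109 probes that stood well above background throughout, floored at the array's lowest such probe signal and log2-transformed. Python 3.11.15 and R 4.3.3 were used. The limma 3.58.1 model (lmFit, eBayes) was fitted to all 26 arrays in 9 groups, over 144 miRNAs with complete detection in some group, with Benjamini-Hochberg adjustment within each comparison and calls at an adjusted p under 0.05. Residual degrees of freedom were 17, prior 2.32. The procedure was checked on simulated data with independent noise, no slide or scan day effect and no floor, so the check does not cover those limits. With 3 against 3 livers, an exact permutation test cannot go below a p of 0.1, so none was used.

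The members and lists were chosen with earlier results of these data known. miRNAs were named if called, among the 10 largest differences each way of those detected on all 6 arrays, complete in 1 group and absent in the other, detected members of the lists, among 5 named by the study, or called in an interaction. Alternatives covered scaling, background correction, probe summary, detection filter, floor, fold limits, slide, scan day and source label hour, spread, threshold and leaving out each array. The normexp background correction added an offset of 50 signal units, which shrinks the folds of dim miRNAs. Sequences came from RefSeq (GRCr8).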

Additional observations from a re-analysis of the deposited data

Results flagged for a closer look

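The operation difference of miR-93 changed with time. It was 1.11 larger at 24 hours than at 6 hours (log2, SE 0.193, limma adjusted p 0.00212) and 1.06 larger than at 12 hours (SE 0.182, limma adjusted p 0.00185), with 3 of 3 arrays of 2/3 PH above all of 1/3 PH at 24 hours. Both interactions include the 1/3 PH livers at 24 hours on slides 1 and 5, and slide could not be separated from operation at 24 hours. Of 16 alternatives, 7 ended the call of 24 minus 6 hours and 8 that of 24 minus 12 hours, the first scan day alone among them, with differences of 0.98 and 1.03. The sign turned with normexp in the former and with the 75th percentile over all probes or the deposited table in the latter.

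The operation difference of miR-15b at 24 hours was smaller than that at 36 hours, by −1.10 (SE 0.199, limma adjusted p 0.00356). At 36 hours all 3 arrays of 2/3 PH lay above all of 1/3 PH, and at 24 hours only m29B stood well above. The call ended in 5 of 16 alternatives, slide as a random block among them, where the difference was −1.12. At 36 hours 1/3 PH was all on slide 2 and 2/3 PH on slides 4 and 6, scanned on other days, so slide and scan day could not be separated from operation there.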

How the results depend on the processing

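The count of 4 miRNAs called higher at 24 hours became 0 without scaling, with the 75th percentile over all probes, normexp background correction, the deposited log2 table or only the groups compared. It became 1 with the brightest probe, the total gene signal of the software, detection on all 26 arrays (82 miRNAs tested), slide as a random block, scan day as a fixed block or the first scan day alone, an alternative chosen after seeing the data. The 1 call was miR-20b-5p with detection on all 26 arrays, where miR-93, miR-17-5p and miR-18a were not tested. In the other settings of 1 call it was miR-93. The count was 2 with a floor of 1 signal unit, 9 with array quality weights and 11 at an unadjusted p. Leaving out each array gave 1 (without m23, m24 or m26) to 8 (without m5m of 1/3 PH at 12 hours), with 2 without m29B and 7 without m3 of 2/3 PH at 12 hours. The count of 0 called lower in limma became 2 with quantile normalization and 4 with array quality weights or an unadjusted p, and 0 to 1 (without m5m) on leaving out each array. The cause was not tested.

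The share outside 0.8 to 1.2-fold, 29.01%, was 30.5% without scaling or with slide as a random block, 67.2% with the 75th percentile over all probes, 26.7% with quantile normalization, 6.11% with normexp, 32.1% with the total gene signal, 21.4% with the brightest probe or array quality weights, 41.2% with the deposited table, 31.3% with the floor of 1 unit, 26.3% over miRNAs detected on at least 1 array, 22.0% over those detected on all 26, 22.9% with scan day as a block and 22.1% with the first scan day alone. It was 2.29% under 0.5 or over 2-fold. The normexp offset of 50 signal units shrinks the folds of dim miRNAs. Leaving out each array gave 22.1% (without m24) to 40.5% (without m20).

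Within slide 2, the count of 10 became 0 without scaling, with the 75th percentile over all probes or with normexp, 3 with detection on at least 1 array, 4 with the brightest probe, 6 with only the groups compared and 18 with array quality weights. Leaving out each array gave 1 (without m46 of 1/3 PH at 36 hours) to 13 (without m5m), with 2 without m26 or m47, 3 without m29B and 4 without m31B.

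The single call of 24 minus 6 hours became 0 without scaling, with normexp, the deposited table, detection on all 26 arrays, only the groups compared or the first scan day alone, and 2 with quantile normalization. The single call of 24 minus 12 hours became 0 under these same 6 settings and also with the 75th percentile over all probes, the total gene signal or the floor of 1 unit, and 3 with quantile normalization. For 24 minus 6 hours, the 1 call with that percentile or that floor was not miR-93 (limma adjusted p 0.347 and 0.0508). miR-93 was not among the miRNAs tested with detection on all 26 arrays. The single call of 24 minus 36 hours became 0 without scaling, with the 75th percentile over all probes, normexp, slide as a random block or only the groups compared. Leaving out each array gave 1 to 2 for 24 minus 6 hours (2 without m70B of 2/3 PH at 6 hours or m5m), 1 to 8 for 24 minus 12 hours (8 without m3, 3 without m70B or m76 of 2/3 PH at 6 hours, 2 without m2 or m6 of 1/3 PH at 12 hours) and 1 to 1 for 24 minus 36 hours. The cause was not tested.

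Slide as a fixed block could not be fitted for the 24 hour comparison. The titles give no replicate number that the groups share, but the source labels carry 24, 25 and 26 hours once in each 24 hour group. With that hour as a replicate block, an alternative chosen after seeing the data, 5 were called higher at 24 hours, miR-20a with the 4, and 8 within slide 2, and the other counts and the share outside the limits did not change. Whether the label hours pair rats is not known, and deviations from the group means correlated at −0.0217, −0.149 and −0.342 between rats of the same hour. Signal over background limits the miRNAs near the floor, miR-17-5p and miR-18a among them.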
